A study of Mus musculus with 3 samples.

Results

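Fabp5, Fabp4, Cd36, Pparg and Ppard, genes of fatty acid binding, uptake and sensing, were followed across the cells of mouse dorsal skin. They were chosen by symbol, and each symbol matched 1 row, so the set is 5 of the 31053 genes in the matrices. The 3' single-cell libraries came from C57BL/6 mice 7 weeks old. One library (IMQ+celastrol) came from skin of mice given celastrol and imiquimod, 1 (IMQ) from skin given imiquimod alone, and 1 (normal) from skin given glycerin as a control. Imiquimod, a Toll-like receptor agonist applied to the skin, raises a psoriasis-like inflammation in mice, and celastrol is a plant triterpenoid tested here against it. The labels did not give the number or sex of the mice behind a library, the celastrol dose or route, or the days of treatment. With 1 library in each group no difference between groups has a replicate check, and no p-value was computed. All intervals are 95% and cover counting error only, not the variation between mice, libraries or cells.

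Fatty acid binding proteins are small cytosolic carriers that hold long-chain fatty acids and pass them between membranes, enzymes and the nucleus. FABP5 is the epidermal form, FABP4 is the form of adipocytes, capillary endothelium and some macrophages, and CD36 is a surface receptor for long-chain fatty acids, oxidised lipoproteins and thrombospondin. PPARγ (Pparg) and PPARδ (Ppard) are nuclear receptors that bind fatty acids and, paired with retinoid X receptors, act on genes of lipid storage and oxidation. In skin, PPARγ is known for its part in sebocyte differentiation and PPARδ for its part in keratinocyte differentiation and repair.

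Fabp5 (ENSMUSG00000027533) lies on the forward strand at chr3:10012548-10016607 and Fabp4 (ENSMUSG00000062515) on the reverse strand at chr3:10204088-10208576, in GENCODE vM21 on GRCm38. The gap between them is 187 kb and holds 6 annotated genes, among them the related binding protein genes Pmp2 and Fabp9. Cd36 (ENSMUSG00000002944) is at chr5:17781690-17888801 on the reverse strand, Pparg (ENSMUSG00000000440) at chr6:115360951-115490399 on the forward strand, and Ppard (ENSMUSG00000002250) at chr17:28232700-28301474 on the forward strand. Reads from the 3' ends of these genes are largely unique to them. Of the 31-base words in the last 500 bases of their transcripts, 14.4% were shared with other annotated genes for Fabp5 (4 genes, none of them a row of the matrices), 1.65% for Fabp4, 0.111% for Pparg, 0.837% for Ppard and 0 of 1736 words for Cd36.

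PPARs bind repeats of the half-site AGGTCA, so the promoters of the members were read for it in RefSeq's windows on GRCm38.p6, which run from 250 bases before a start to 50 after. The windows of Cd36, Pparg and Ppard were in the table, with 5 starts in all. A half-site on either strand was present in 3 of those 5 windows and in 16.3% of all 32851 windows. The direct repeat AGGTCANAGGTCA, read on both strands, was in none of the 5 and in 0.0396% of all windows. A match of letters is a description and not a binding site. The windows with a half-site are shown 5′ to 3′ on the gene's strand, with the half-site in capitals. They are Cd36 at chr5:17835847-17836146 (reverse strand), where the half-site is on the opposite strand and its first base is at -228 relative to the start, and the first and second Pparg starts at chr6:115360894-115361193 and chr6:115362099-115362398 (forward strand), where it begins at -28 and -9.
Cd36 promoter: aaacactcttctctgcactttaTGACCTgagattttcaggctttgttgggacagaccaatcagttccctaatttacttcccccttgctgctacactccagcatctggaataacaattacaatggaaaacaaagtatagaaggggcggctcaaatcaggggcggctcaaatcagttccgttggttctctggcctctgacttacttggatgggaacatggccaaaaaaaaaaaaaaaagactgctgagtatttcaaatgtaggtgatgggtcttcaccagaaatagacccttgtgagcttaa
Pparg promoter, start 1: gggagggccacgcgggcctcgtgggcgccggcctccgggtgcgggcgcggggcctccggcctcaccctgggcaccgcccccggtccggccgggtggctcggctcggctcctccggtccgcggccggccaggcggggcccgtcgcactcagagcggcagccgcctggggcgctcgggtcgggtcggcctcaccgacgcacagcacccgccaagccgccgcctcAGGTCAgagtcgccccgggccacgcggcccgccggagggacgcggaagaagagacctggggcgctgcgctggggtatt
Pparg promoter, start 2: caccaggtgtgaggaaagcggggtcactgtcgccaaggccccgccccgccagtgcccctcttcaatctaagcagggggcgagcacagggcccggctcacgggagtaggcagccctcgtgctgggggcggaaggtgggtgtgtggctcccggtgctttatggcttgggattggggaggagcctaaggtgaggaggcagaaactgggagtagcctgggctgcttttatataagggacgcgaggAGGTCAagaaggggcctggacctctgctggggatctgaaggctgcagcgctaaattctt

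The IMQ+celastrol, IMQ and normal libraries kept 6092, 7495 and 9558 cells, at a median of 10125, 8859 and 5917 UMIs (unique molecular identifiers, 1 per captured transcript) per barcode before filtering. Cells were clustered without the 5 members, and classes are called by the marker list their clusters matched. Barcode sequences shared between libraries numbered 23 for IMQ+celastrol with IMQ, 15 for IMQ+celastrol with normal and 26 for IMQ with normal. Levels are the UMIs of a gene divided by all UMIs of the class, scaled to counts per 1e+06 UMIs (CPM). A difference was called where it was at least 1.5-fold after 1 CPM was added to both libraries, and a gene counted as measured at 10 CPM or more in 1 of the libraries compared. A gene that reached 10 CPM in only 1 of them could be called in 1 direction only. No cluster matched the granular layer list. The IMQ library had 351 cells in the cycling keratinocyte-like class and 12 in the basal one, so these classes were read together. Their names are those of whole clusters and do not give the state of single cells. The endothelial marker Pecam1 stood at 945, 1145 and 1135 CPM in blood endothelial-like cells of the IMQ+celastrol, IMQ and normal libraries, against 4.62, 0.681 and 2.44 CPM in pericyte or smooth muscle-like cells. Cldn5, another endothelial marker, was uneven in the blood endothelial-like cells, at 1817, 419 and 923 CPM. Markers of other cells were also present there: Acta2 of smooth muscle at 1265, 165 and 32.7 CPM, Col1a1 of fibroblasts at 413, 7.61 and 24.1 CPM, and Rgs5 of pericytes at 119, 50.004 and 355 CPM in IMQ+celastrol, IMQ and normal skin. Their part in the blood endothelial results was not tested.

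Fabp5 was the member with the broadest difference in the epidermis. In keratinocyte-like cells it stood at 15967 CPM in the IMQ+celastrol library (1629 cells), 22338 CPM in the IMQ library (1207 cells) and 978 CPM in the normal library (1640 cells). Both imiquimod libraries were far above normal skin: the ratio was 22.9-fold for IMQ over normal (interval 22.5 to 23.2) and 16.3-fold for IMQ+celastrol over normal. IMQ+celastrol stood at 0.715 times IMQ (log2 -0.48), which did not reach 1.5-fold. That last ratio passed 1.5-fold in several other readings. The log2 value was -0.76 with each cell given the same weight and -0.76 after thinning to 2000 UMIs a cell. Thinning left out cells under 2000 UMIs and also gave each cell the same weight, so these readings are not separate. Of all measured genes in this class, 10.2% were called higher and 13.4% lower in IMQ+celastrol than in normal skin. In this class 15.7% of 7692 measured genes were called higher and 20.2% lower in IMQ than in normal skin. For IMQ+celastrol over IMQ, 4.78% of genes were called higher and 3.61% lower.

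By layer, the difference between IMQ and normal skin was larger, as a ratio, in the basal or cycling cells than in the spinous cells. In basal or cycling keratinocyte-like cells Fabp5 was at 4719 CPM in IMQ+celastrol, 8129 CPM in IMQ and 229.5 CPM in normal skin, a ratio of 35.4 for IMQ over normal (interval 34.1 to 36.8), in a class where 26.1% of genes were called higher and 16.4% lower. In spinous keratinocyte-like cells it was at 29437 CPM in IMQ+celastrol, 31499.7 CPM in IMQ and 3204 CPM in normal skin, a ratio of 9.83, where 15.6% of genes were called higher and 30% lower. IMQ+celastrol was 1.72-fold lower than IMQ in the basal or cycling cells, where 6.27% of genes were called higher and 7.6% lower, and 0.935 times IMQ in the spinous cells. The clusters behind these classes differed between libraries. Spinous cells of normal skin were mostly in 1 cluster (366 of 389 cells, 3120 CPM), while those of the imiquimod libraries were in a pair of others, at 26270 and 35906 CPM in IMQ+celastrol and 24436 and 37356 CPM in IMQ. Basal or cycling keratinocyte-like cells of IMQ+celastrol lay mostly in 2 clusters. In the cluster named cycling, shared with IMQ, Fabp5 was 6799 CPM in IMQ+celastrol and 8124 CPM in IMQ. In the cluster named basal it was 2544 CPM in IMQ+celastrol, and 55 normal cells there had 1035 CPM. The median cell of the cycling keratinocyte-like class had 1392 CPM in IMQ+celastrol and 5526 CPM in IMQ, a wider gap than between the summed levels.

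**Figure D1:**
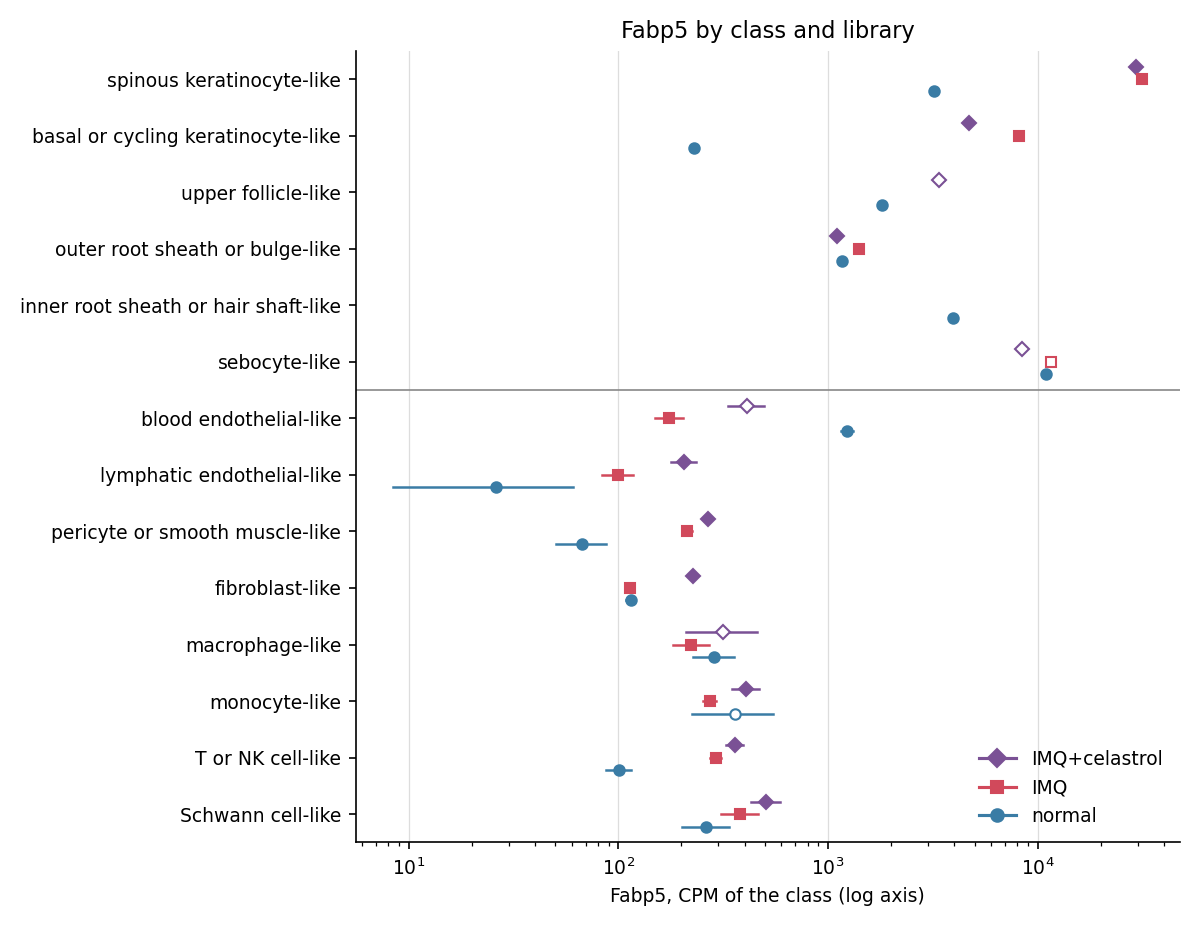
Fabp5 in CPM of the class (log axis), by class and library, with lines for the exact 95% Poisson interval, filled symbols for classes of 50 cells or more and open symbols for fewer. Classes above the grey line are epithelial, and there the imiquimod libraries stand well to the right of normal skin in the keratinocyte layers (31499.7 against 3204 CPM in spinous cells of IMQ and normal skin) and close to it in sebocyte-like cells.

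Single cells showed the same contrast with a wide spread. The median keratinocyte-like cell had a Fabp5 level of 3585 CPM in IMQ+celastrol, 21137 CPM in IMQ and 109 CPM in normal skin. The middle 80% of cells ran from 212 to 42064 CPM in IMQ+celastrol, from 1206 to 44104 CPM in IMQ and from 0 to 2666 CPM in normal skin. So the ranges of IMQ+celastrol and IMQ overlapped over most of their width, with the IMQ+celastrol median far lower. In spinous cells the medians were 23059, 30449 and 2139 CPM in IMQ+celastrol, IMQ and normal skin.

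Since layers were mixed differently in the libraries, keratinocyte-like cells were also lined up by the share of the suprabasal keratins Krt1 and Krt10 among their Krt1, Krt10, Krt5 and Krt14 UMIs. In normal skin Fabp5 was higher in each step of this share, from 179 CPM at 0 to 5% to 3115 CPM at 75 to 100%. In the IMQ library it was 14465 CPM at 0 to 5%, 32151 CPM at 5 to 25% and between 35084 and 37212 CPM above that. In the IMQ+celastrol library it was 6511 CPM at 0 to 5%, 24089 CPM at 5 to 25% and between 27150 and 33232 CPM above that. Cells of the imiquimod libraries thus already had high Fabp5 UMIs at the lowest share of differentiation keratins, and the gap between IMQ+celastrol and IMQ was widest, as a ratio, in that first step. That step is not 1 layer. It held 933 IMQ+celastrol, 657 IMQ and 1009 normal cells, while the basal or cycling class had 879, 363 and 1251. In the imiquimod libraries it therefore also held cells named spinous, and layers could still be mixed differently within it. In each step both imiquimod libraries were above normal skin.

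**Figure D2:**
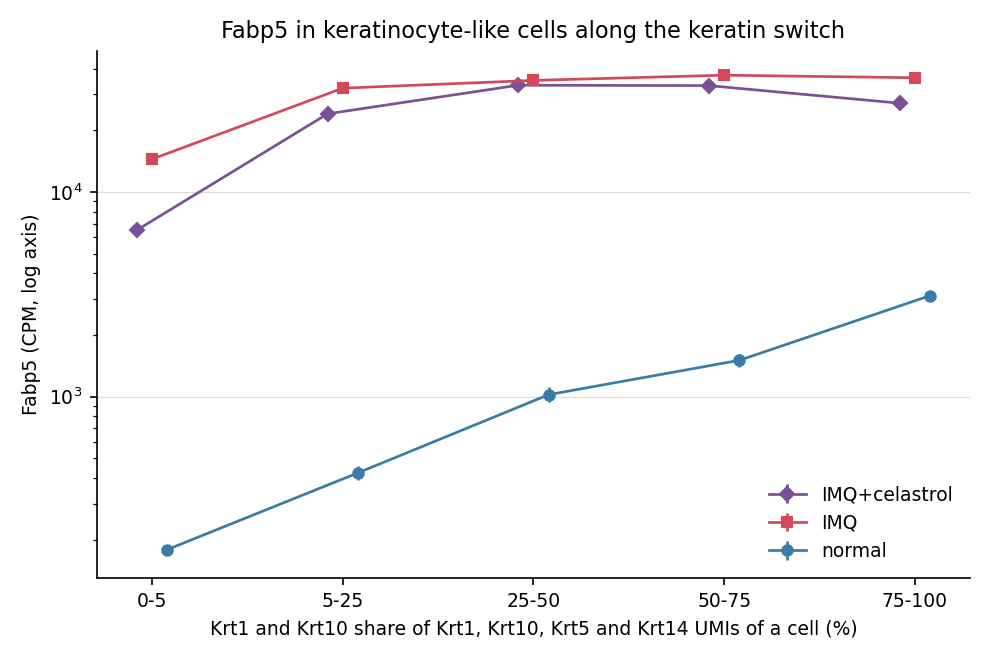
Fabp5 in CPM (log axis) of keratinocyte-like cells against the share of Krt1 and Krt10 among the keratin UMIs of a cell, with 1 line per library and exact 95% Poisson intervals, mostly smaller than the symbols. The normal line climbs at each step up to 3115 CPM, while the IMQ line is near its top from the second step on (32151 CPM).

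The epidermis held nearly all of the transcript in the imiquimod libraries and little of it in normal skin. Of a library's Fabp5 UMIs, keratinocyte-like cells held 97.4% in IMQ+celastrol, 97.6% in IMQ and 12.7% in normal skin. In normal skin the inner root sheath or hair shaft-like cells (1101 cells at 3951 CPM) and the sebocyte-like cells held most of the rest, 46.7% and 24.0%. The inner root sheath or hair shaft-like class had only 1 cell in IMQ+celastrol and 1 in IMQ. These shares thus also follow which cells each library held. Sebocytes make the lipids of sebum, and summed over the class their Fabp5 was 8409 CPM in IMQ+celastrol (16 cells), 11635 CPM in IMQ (30 cells) and 10920.5 CPM in normal skin (215 cells). The median sebocyte-like cell had 5506 CPM in IMQ+celastrol, 11567 CPM in IMQ and 2434 CPM in normal skin, so the class levels were within 1.5-fold of normal skin while the cell medians were not. Outer root sheath or bulge-like cells had 1099.6, 1409.6 and 1173 CPM over the class in IMQ+celastrol, IMQ and normal skin, with cell medians of 308, 266 and 113 CPM. These cells lay mostly in different clusters, since 1 cluster held 243 of 262 IMQ+celastrol cells and 70 of 92 IMQ cells, and another 831 of 997 normal cells. Upper follicle-like cells had 3401 CPM in IMQ+celastrol (21 cells), 18516 CPM in IMQ (2 cells) and 1803 CPM in normal skin (393 cells).

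Outside the epithelium Fabp5 UMIs were seen beside keratin UMIs. In T or NK cell-like cells Fabp5 was 360 CPM in IMQ+celastrol, 292 CPM in IMQ and 101 CPM in normal skin, and in pericyte or smooth muscle-like cells it was 268, 213 and 67.1 CPM in the same order. Krt1, Krt10, Krt5 and Krt14 together stood at 692, 263 and 124 CPM in T or NK cell-like cells of IMQ+celastrol, IMQ and normal skin, and at 398 CPM in pericyte or smooth muscle-like cells of IMQ+celastrol, 106 CPM in IMQ and 96.4 CPM in normal skin. For each 100 of those keratin UMIs, T or NK cell-like cells held 52.0 Fabp5 UMIs in IMQ+celastrol, 111 in IMQ and 81.5 in normal skin, against 49.6, 85.0 and 4.27 in keratinocyte-like cells of the same libraries. Other classes of IMQ held more Fabp5 per keratin UMI, with 200 in pericyte or smooth muscle-like, 192 in neutrophil-like, 146 in monocyte-like and 337 in Langerhans cell-like cells, and fibroblast-like cells held 78.3. In normal skin, dendritic cell-like cells held 559, macrophage-like cells 231, dermal papilla-like cells 123 and lymphatic endothelial-like cells 26.3. Inner root sheath or hair shaft-like and sebocyte-like cells, which held most of that library's Fabp5 UMIs, held 441 and 340. The part of free keratinocyte RNA in the low Fabp5 levels outside the epithelium was not tested.

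Blood endothelial-like cells of normal skin stood apart from this: they held 1234 CPM of Fabp5 beside 73.9 CPM of the 4 keratins. In the same class Fabp5 was 409 CPM in IMQ+celastrol (21 cells) and 175 CPM in IMQ (52 cells), so IMQ was 7.05-fold below normal skin (interval 5.95 to 8.40). That direction depends on doublets: with doublets kept the log2 ratio of IMQ over normal was 0.023, with Scrublet's own calls left out it was 0.11, and as read here it was -2.82. Lymphatic endothelial-like cells had 205, 99.4 and 26.0 CPM in IMQ+celastrol, IMQ and normal skin, and there too the order of IMQ and normal turned round with doublets kept (log2 1.93 as read here and -1.64 with doublets kept).

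**Figure D3:**
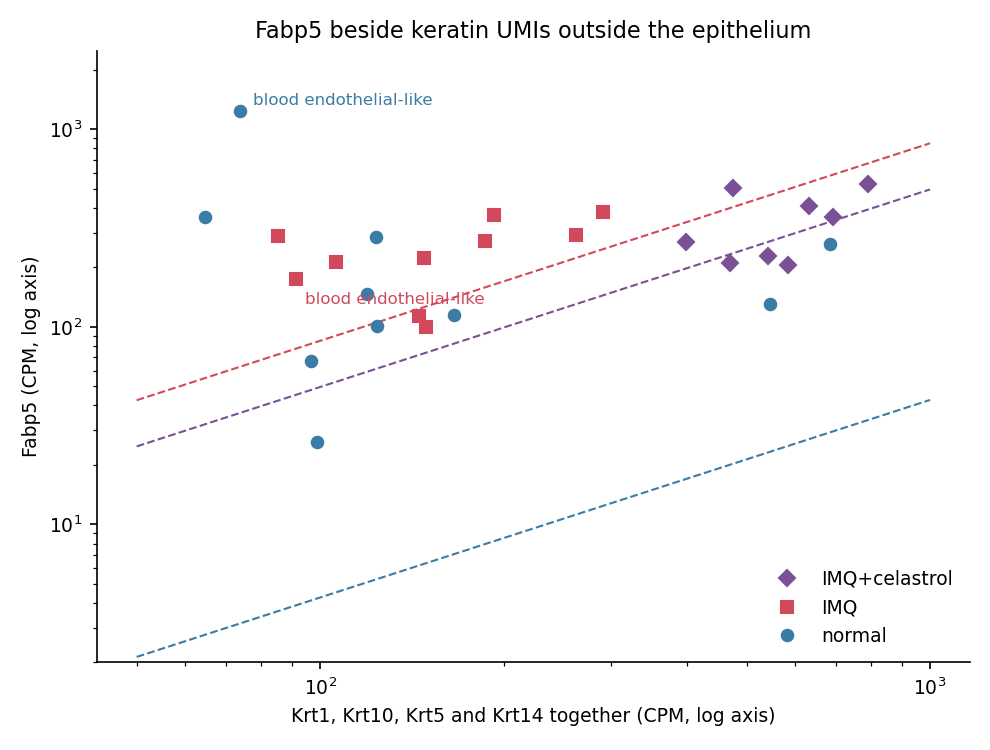
Fabp5 against the summed level of Krt1, Krt10, Krt5 and Krt14 (both in CPM, log axes) in non-epithelial classes of 50 cells or more, with 1 symbol per class and library. Dashed lines give the ratio of the 2 levels in keratinocyte-like cells of the same library (49.6, 85.0 and 4.27 per 100 keratin UMIs in IMQ+celastrol, IMQ and normal skin), and the blood endothelial-like cells of normal skin lie farthest above their line.

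Fabp4 was highest in blood endothelial-like cells of normal skin and far lower there in both imiquimod libraries. It stood at 2112 CPM in IMQ+celastrol (516 UMIs in 21 cells), 2157 CPM in IMQ (1984 UMIs in 52 cells) and 24641 CPM in normal skin (17349 UMIs in 187 cells). IMQ was 11.4-fold below normal skin (interval 10.9 to 12.0), while IMQ+celastrol over IMQ was 0.979 (interval 0.887 to 1.08). A Fabp4 UMI was seen in 14 of 21 of these cells in IMQ+celastrol, 26 of 52 in IMQ and 146 of 187 in normal skin, while the median depth was 8226, 15224.5 and 3255 UMIs per cell. In T or NK cell-like cells, which should lack the gene, the share was 1.73%, 3.06% and 0.885%, at median depths of 2524, 3197 and 2764 UMIs. Thinning to 2000 UMIs a cell left out cells below that depth. It kept 17 of 21, 50 of 52 and 130 of 187 blood endothelial-like cells, whose shares after thinning were 52.9%, 40.0% and 80.8%. Before thinning, the median blood endothelial-like cell had 566 CPM of Fabp4 in IMQ+celastrol, 35.5 CPM in IMQ and 19313 CPM in normal skin.

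With so few endothelial cells the near equality of the imiquimod libraries is not firm. The log2 ratio of IMQ+celastrol over IMQ was -0.03 as read here, -0.60 with doublets kept and -0.73 after thinning. The adipocyte markers were near 0 in the class: 9 of 9 were at 0 in IMQ+celastrol and in IMQ, and 6 of 9 in normal skin, where the list summed to 9.94 CPM. Adipoq, which defines adipocytes, had 0 UMIs in blood endothelial-like cells of all 3 libraries. Over the class, 4 of the 5 members were called lower in IMQ than in normal skin and 0 higher, where 21% of the 8542 measured genes were called lower and 17.7% higher. Pparg counted as measured through normal skin alone, and the Fabp5 call was lost with doublets kept or with Scrublet's own calls left out, where Fabp4 and Cd36 kept theirs and Pparg was not recomputed.

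Mural cells carried most of the Fabp4 UMIs in the imiquimod libraries. Pericyte or smooth muscle-like cells held 90.1% of the library's Fabp4 UMIs in IMQ+celastrol, 76.2% in IMQ and 9.51% in normal skin, while blood endothelial-like cells held 5.13%, 5.57% and 86.8%. The mural level was 1309 CPM in IMQ+celastrol (569 cells), 3693 CPM in IMQ (605 cells) and 2321 CPM in normal skin (194 cells). IMQ was thus 1.59-fold above normal skin (14.3% of genes called higher and 16% lower). IMQ+celastrol was 2.82-fold below IMQ (3.14% called higher and 3.09% lower) and 1.77-fold below normal skin (13.6% called higher and 15.9% lower). In mural cells with no UMI of 5 endothelial markers Fabp4 was still 1368, 3486 and 2137 CPM in IMQ+celastrol, IMQ and normal skin. In the largest mural cluster the levels were 2075, 5341 and 2475 CPM, in the cluster led by genes such as the pericyte gene Rgs5 they were 455, 1719 and 3032 CPM, and a cluster led by the smooth muscle genes Des, Myh11 and Actg2 had 1.76 CPM (2 UMIs) in IMQ+celastrol and 51.6 CPM in IMQ. IMQ was thus above normal skin in the largest mural cluster and below it in the cluster led by Rgs5, which held 24 normal cells. With each cell given the same weight the class's log2 ratio of IMQ over normal was 0.58, just short of 1.5-fold, against 0.67 as read here.

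**Figure D4:**
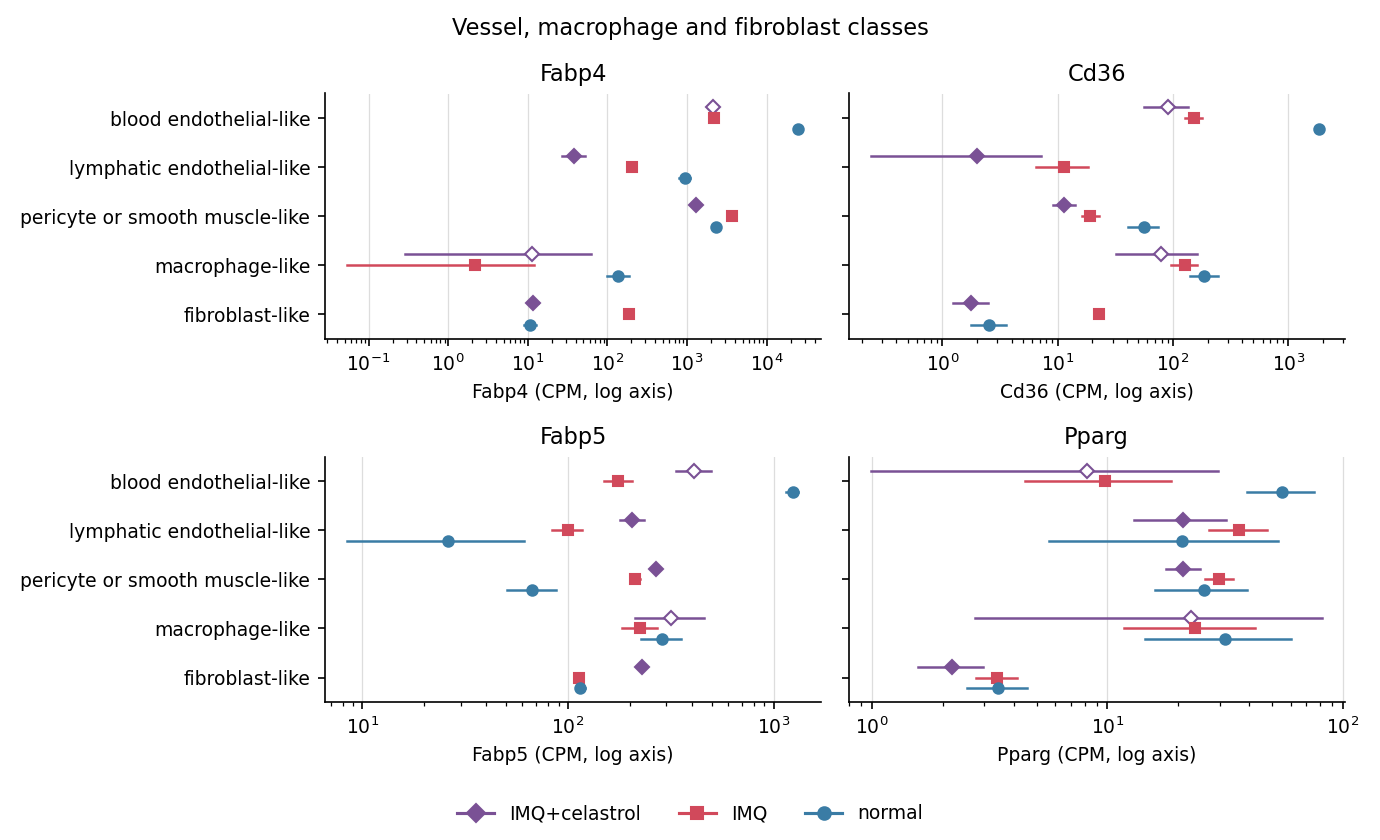
Fabp4, Cd36, Fabp5 and Pparg in CPM (log axes) in vessel, macrophage-like and fibroblast-like classes by library, with exact 95% Poisson intervals and open symbols for classes under 50 cells. Normal skin lies to the right in blood endothelial-like cells in each panel (24641 CPM of Fabp4), and IMQ lies to the right in fibroblast-like cells for Fabp4 and Cd36 (188 and 22.8 CPM).

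Fabp4 UMIs were also seen in fibroblast-like cells, mostly in the IMQ library. The level was 11.6 CPM in IMQ+celastrol, 188 CPM in IMQ and 10.7 CPM in normal skin, so IMQ was 17.5-fold above normal skin (interval 14.8 to 20.7) and IMQ+celastrol 16.2-fold below IMQ (interval 14.2 to 18.6). In this class 11.4% of genes were called higher and 11.5% lower in IMQ than in normal skin, and 7% higher and 3.91% lower in IMQ+celastrol than in IMQ. The libraries' fibroblast-like cells lay largely in different clusters: 1 cluster held 84 IMQ+celastrol, 1282 IMQ and 2 normal cells, another 335, 21 and 1125 cells, and 1 more held 268 cells, all of normal skin. Fabp4 was read in 3 of the clusters with 80 cells or more of each library. It was 7.06, 42.5 and 5.38 CPM, 25.3, 151 and 33.1 CPM, and 27.5, 747 and 24.8 CPM in IMQ+celastrol, IMQ and normal skin. IMQ was the highest in each of these 3, but not every cluster of that size is given. In a cluster of 191, 58 and 571 cells Fabp4 was 1.59, 25.9 and 22.1 CPM, with IMQ near normal skin. A Fabp4 UMI was seen in 5.39% of the cells in IMQ+celastrol, 24.2% in IMQ and 2.16% in normal skin. Most adipocyte markers moved with it. The 9 markers summed to 12.9, 146 and 4.53 CPM in IMQ+celastrol, IMQ and normal skin, with Cfd at 86.3 CPM of the IMQ sum. Adipoq had 1, 143 and 1 UMIs in these cells, while Lep was at 0 UMIs in all 3 libraries. Acvr1c went the other way, at 1.04, 0.699 and 1.75 CPM in IMQ+celastrol, IMQ and normal skin. In the IMQ library 6 of 2947 fibroblast-like cells held 3 or more of the markers. Those 6 cells held 138 of the 143 Adipoq UMIs and 2097 of the 5641 Fabp4 UMIs (37.2%). Without them Fabp4 was 118 CPM in IMQ fibroblast-like cells, and the log2 ratio was 3.46 for IMQ over normal and -3.35 for IMQ+celastrol over IMQ. The part of adipocytes and of free adipocyte RNA in the rest was not tested. Schwann cell-like cells also held more Fabp4 UMIs in IMQ, with 0 UMIs in IMQ+celastrol (83 cells), 18 in IMQ (74 cells) and 1 in normal skin (115 cells).

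In some other classes 1 cell held much of the Fabp4. Macrophage-like cells had 1 UMI in IMQ+celastrol (22 cells), 1 UMI in IMQ (57 cells) and 39 UMIs in normal skin (118 cells), and 29 of those 39 lay in 1 cell. The level was 11.3, 2.15 and 137 CPM, with a log2 ratio of IMQ over normal of -6.00 (interval -11.34 to -3.44), in a class where 30.6% of genes were called higher and 21.4% lower. Lymphatic endothelial-like cells had 37.8, 204 and 932 CPM in IMQ+celastrol, IMQ and normal skin, and in normal skin 179 UMIs lay in 10 of 52 cells, with 76 in 1 cell. In spinous keratinocyte-like cells of normal skin 69 of 83 UMIs lay in 1 cell. Keratinocyte-like cells as a whole stood at 3.44, 6.13 and 6.83 CPM.

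Cd36, like Fabp4, was lower in blood endothelium of both imiquimod libraries than in normal skin. Blood endothelial-like cells had 90.04 CPM in IMQ+celastrol (22 UMIs), 152 CPM in IMQ (140 UMIs) and 1866 CPM in normal skin (1314 UMIs). IMQ was 12.3-fold below normal skin (interval 10.3 to 14.7), and IMQ+celastrol 1.69-fold below IMQ (interval 1.07 to 2.78). The share of cells with a Cd36 UMI was 23.8%, 63.5% and 72.2% in IMQ+celastrol, IMQ and normal skin, and 11.8%, 18.0% and 73.8% after thinning, against 0 UMIs in T or NK cell-like cells of all 3 libraries. Both Fabp4 and Cd36 were seen in the same cell in 3 of 21 blood endothelial-like cells of IMQ+celastrol, 15 of 52 of IMQ and 126 of 187 of normal skin.

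Macrophage-like cells, which use CD36 to take up lipids and cell debris, had 79.2 CPM in IMQ+celastrol (7 UMIs), 127 CPM in IMQ and 187 CPM in normal skin. The log2 ratio of IMQ over normal was -0.56, with an interval that reached 0.00, and it did not pass 1.5-fold. With each cell given the same weight that ratio was -1.61. Pericyte or smooth muscle-like cells had 11.4, 19.2 and 56.1 CPM in IMQ+celastrol, IMQ and normal skin. Sebocyte-like cells had 40.0, 56.7 and 39.9 CPM, within 1.5-fold of each other. Keratinocyte-like cells had 1 Cd36 UMI in IMQ+celastrol, 3 in IMQ and 7 in normal skin.

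In fibroblast-like cells Cd36 went the other way from blood endothelium: 1.77 CPM in IMQ+celastrol, 22.8 CPM in IMQ and 2.56 CPM in normal skin. These were 34, 686 and 35 UMIs in 24, 179 and 20 cells. Cd36 counted as measured in this class through IMQ alone, so it could not be called lower there. IMQ was 8.93-fold above normal skin (interval 6.36 to 12.9) and IMQ+celastrol 12.9-fold below IMQ (interval 9.15 to 18.8). As for Fabp4, the libraries lay largely in different clusters. Cd36 was likewise read in 3 of the clusters with 80 cells or more of each library. It had 5, 92 and 0 UMIs, 17, 409 and 6 UMIs, and 5, 123 and 0 UMIs in IMQ+celastrol, IMQ and normal skin. The IMQ counts were the highest in these 3 too, but not every cluster of that size is given. The 6 cells with adipocyte markers held 59 of the 686 UMIs, and the IMQ level was 21.0 CPM without them. Fibroblast-like cells held 18.7% of the library's Cd36 UMIs in IMQ+celastrol, 59.5% in IMQ and 2.16% in normal skin. Over all kept cells Cd36 was 1.90 CPM in IMQ+celastrol, 10.7 CPM in IMQ and 24.0 CPM in normal skin.

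Pparg had its highest level in sebocyte-like cells. They had 129 CPM in IMQ+celastrol (45 UMIs), 94.7 CPM in IMQ (107 UMIs) and 94.4 CPM in normal skin (246 UMIs), and the log2 ratio of IMQ over normal was 0.01 (interval -0.34 to 0.34). These cells held 14.7% of the library's Pparg UMIs in IMQ+celastrol, 16.6% in IMQ and 61.8% in normal skin, with 16, 30 and 215 cells. Pericyte or smooth muscle-like cells held 47.2%, 34.1% and 5.28% of the Pparg UMIs in the same order, at 20.9, 29.8 and 25.6 CPM. A Fabp5 and a Pparg UMI were seen together in 11 of 16, 23 of 30 and 106 of 215 sebocyte-like cells. Sebocyte-like cells were thus fewer in the imiquimod libraries at much the same Pparg level, and what the dissociation took from the glands cannot be told apart from what the skin held.

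Blood endothelial-like cells had 8.19 CPM of Pparg in IMQ+celastrol (2 UMIs), 9.78 CPM in IMQ (9 UMIs) and 55.4 CPM in normal skin (39 UMIs), a log2 ratio of -2.50 for IMQ over normal (interval -3.73 to -1.43). Fabp4, Cd36 and Pparg thus all had their highest blood endothelial level in normal skin and lower ones in both imiquimod libraries. Lymphatic endothelial-like cells had 20.9, 36.2 and 20.8 CPM, and macrophage-like cells 22.6, 23.6 and 31.7 CPM, with wide intervals. Fibroblast-like cells had 42, 102 and 47 Pparg UMIs, and 21 of the 102 in IMQ lay in the 6 cells with adipocyte markers. In keratinocyte-like cells Pparg was at 0.488, 1.47 and 0.650 CPM in IMQ+celastrol, IMQ and normal skin. T or NK cell-like cells had 2, 1 and 0 Pparg UMIs. Outer root sheath or bulge-like cells of IMQ had 51 Pparg UMIs in 10 of 92 cells, with 26 in 1 cell, and the sebocyte markers summed to 1187 CPM in those 10 cells against 418 CPM in the other 82.

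Ppard was found at low level in nearly all classes and was higher in the keratinocytes of both imiquimod libraries. Keratinocyte-like cells had 35.1 CPM in IMQ+celastrol (1798 UMIs), 49.1 CPM in IMQ (2447 UMIs) and 15.5 CPM in normal skin (238 UMIs). IMQ was 3.17-fold above normal skin (interval 2.78 to 3.64), IMQ+celastrol 2.27-fold above normal skin (interval 1.98 to 2.61), and IMQ+celastrol over IMQ was 0.714 (interval 0.672 to 0.760), short of 1.5-fold, though its log2 value was -0.86 after thinning and -0.68 with each cell given the same weight. By layer the levels were 29.2, 41.8 and 12.2 CPM in basal or cycling cells and 42.1, 53.9 and 25.3 CPM in spinous cells. A Ppard UMI was seen in 51.4%, 73.0% and 12.8% of keratinocyte-like cells, at median depths of 28440, 38549 and 8680 UMIs, and in 6.18%, 10.7% and 2.30% after thinning. In T or NK cell-like cells the thinned shares were 4.18%, 3.49% and 4.26%.

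Fibroblast-like cells had the same order of libraries at a smaller ratio, with 22.3, 31.7 and 18.3 CPM of Ppard in IMQ+celastrol, IMQ and normal skin, so IMQ was 1.73-fold above normal skin. Pericyte or smooth muscle-like cells also had that order, at 19.6, 21.8 and 17.1 CPM, within 1.5-fold of each other. T or NK cell-like cells had another order, at 17.6, 14.0 and 24.3 CPM, so IMQ was 1.73-fold below normal skin (interval 1.14 to 2.64; 14.4% of genes called higher and 14.5% lower). Blood endothelial-like cells held 1, 21 and 11 Ppard UMIs. Of the members, 2 counted as measured in keratinocyte-like cells, Fabp5 and Ppard. Both were called higher in IMQ than in normal skin, where 15.7% of all measured genes were. Both were also called higher in IMQ+celastrol than in normal skin, where 10.2% of all measured genes were.

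The wider pathway was read from 5 lists of 66 genes. In keratinocyte-like cells, 7 of 16 measured PPAR target genes were higher in IMQ than in normal skin and 2 were lower, where 15.7% of all measured genes were higher and 20.2% lower. The median log2 ratio was 0.22, against -0.03 over all, and 5 targets were higher with 10 CPM added in place of 1. Pdk4, which turns cells from glucose to fatty acid oxidation, was at 79.1 CPM in IMQ and 5.27 CPM in normal skin. It counted as measured through IMQ alone, so it could only be called higher. Hilpda and Plin2, proteins of lipid droplets, were at 186 and 92.5 CPM in IMQ and at 14.8 and 15.7 CPM in normal skin. In IMQ+celastrol over IMQ, 1 of 15 measured targets was higher and 3 were lower (median -0.04, against -0.02 over all). Pdk4 was 26.3 CPM and Hilpda 75.2 CPM in IMQ+celastrol, against 79.1 and 186 CPM in IMQ, and the transcription factor gene Klf9 was 60.9 CPM in IMQ+celastrol, 28.9 CPM in IMQ and 111 CPM in normal skin.

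**Figure D5:**
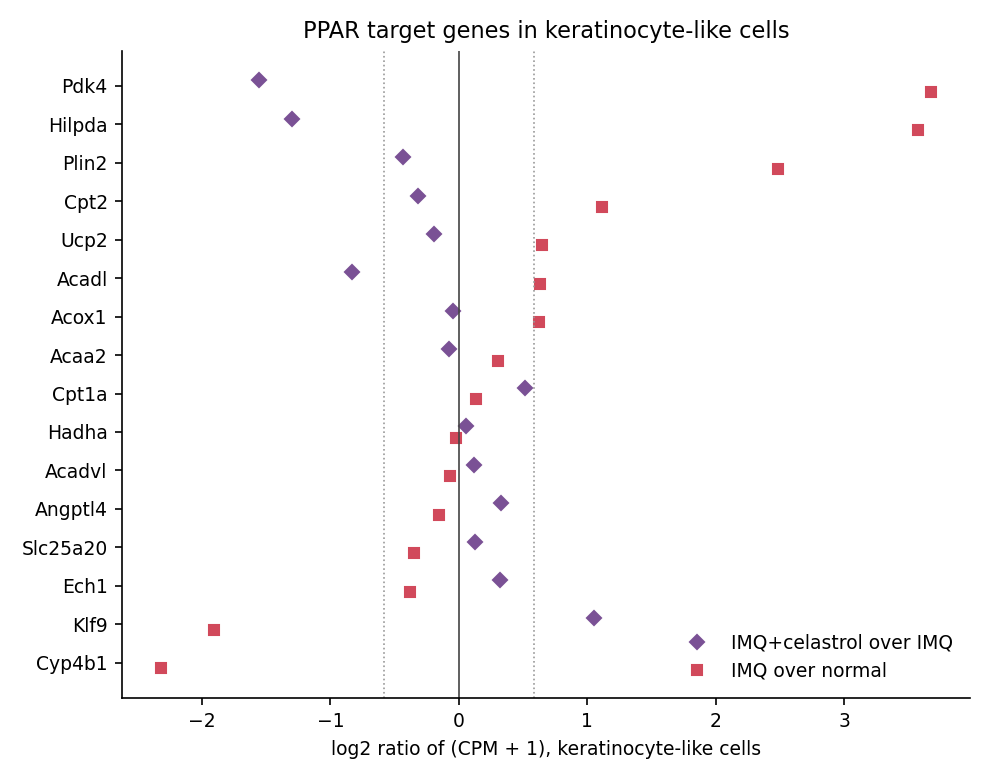
Log2 ratios, after adding 1 CPM, of the measured PPAR target genes in keratinocyte-like cells, for IMQ+celastrol over IMQ (diamonds) and IMQ over normal (squares), with dotted lines at 1.5-fold. The IMQ over normal squares run from Pdk4 (79.1 against 5.27 CPM) to genes lower in IMQ such as Klf9 (28.9 against 111 CPM), and the 2 ratios share the IMQ library.

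Genes of fatty acid uptake and activation were mixed in keratinocyte-like cells. Of 11 measured, 5 were higher and 2 lower in IMQ than in normal skin (median 0.51). Got2, an aminotransferase also known as a plasma membrane fatty acid binding protein, was at 198 CPM in IMQ and 71.0 CPM in normal skin. The fatty acid transport protein gene Slc27a3 was at 20.8 CPM in IMQ and 60.2 CPM in normal skin, and Cav1, the coat protein of caveolae, at 39.3 and 86.1 CPM. For IMQ+celastrol over IMQ, 1 was higher and 2 lower (median -0.29). Of 8 measured PPAR partners, 0 were higher and 2 lower in IMQ (median -0.43). Of 6 measured thrombospondin and CD36 partner genes 1 was higher and 3 lower (median -0.70, but 0.21 over 10 genes with no filter on low values). Thbs1, a ligand of CD36, was at 117 CPM in IMQ+celastrol, 50.5 CPM in IMQ and 192 CPM in normal skin, and the tetraspanin gene Cd9 was at 936 CPM in IMQ and 2400.04 CPM in normal skin. Of the 8 other FABP genes 1 was measured, and it was not called in IMQ over normal.

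In blood endothelial-like cells 4 of 8 measured uptake genes were lower in IMQ than in normal skin, 1 was higher and 3 were not called (median -0.48, against -0.01 over all), where 21% of all measured genes were lower and 17.7% higher. Lpl, the lipase that frees fatty acids from lipoproteins, was at 5.44 CPM in IMQ and 89.5 CPM in normal skin, Cav1 at 579 and 1426 CPM, and the lipoprotein receptor gene Scarb1 at 416 and 695 CPM. Lpl counted as measured through normal skin alone, so it could only be called lower. Of 16 measured PPAR targets 4 were higher and 3 lower (median 0.06). Angptl4, a secreted inhibitor of lipoprotein lipase, was at 44.6 CPM in IMQ and 254 CPM in normal skin, Hilpda at 152 and 52.6 CPM, and Klf9 at 57.6 and 160.5 CPM. Thbs1 was higher, at 142 CPM in IMQ and 44.0 CPM in normal skin, 1 of 2 thrombospondin and CD36 partner genes called higher among 7 measured, with 0 lower. In fibroblast-like cells 5 of 17 PPAR targets were higher in IMQ than in normal skin and 0 lower (median 0.30). Of all measured genes in that class, 11.4% were higher and 11.5% lower. In IMQ+celastrol over IMQ 0 targets were higher and 4 lower (median -0.23, against 0.13 over all), where 7% of all measured genes were higher and 3.91% lower. Plin2 was at 92.2 CPM in IMQ+celastrol, 242 CPM in IMQ and 56.6 CPM in normal skin, Angptl4 at 92.3, 258 and 138 CPM, and Klf9 at 277, 368 and 228 CPM. Cfd, Car3 and Plin4 were the 3 adipocyte markers measured. Each passed 10 CPM in IMQ alone, so none could be called lower in IMQ than in another library. Cfd was at 0.364 CPM in IMQ+celastrol, 86.3 CPM in IMQ and 0.658 CPM in normal skin. Car3 was at 5.31, 18.5 and 0.585 CPM in that order, and Plin4 at 5.78, 20.7 and 1.24 CPM.

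The genes whose pattern was most like each member were ranked by Pearson correlation of log2(CPM + 10) over the 42 combinations of class and library with 50 cells or more, among 5326 genes. These points share 3 libraries and their depths, and the correlations are a description. For Fabp5 they were Ppif (0.86), Zfp750, Mpzl2, Csta1 and Gjb2 (0.81). For Fabp4 they were Esam (0.91), Epas1, Sept4, Fzd4 and Timp4 (0.87), and for Cd36 they were Cd93 (0.79), Rasa4, Tmem255b, Vwf and Nrp1 (0.76). For Pparg the genes at the top held another member: Crat (0.71), Cd36 (0.68), Lpl and Dhrs3 (0.65). For Ppard it was Rps6ka4 (0.73), Uba1, Ccdc71l, Krt6b and Sprr1b (0.66).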

How the data were processed

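UMI counts per gene and barcode were deposited by the authors, who used Cell Ranger 4.0.0 according to the matrix headers. The submitters' processing notes name mm10 and GRCm38 as builds, and aligner settings are not given in the sources used here. In all, the libraries held 103267738 UMIs over 6777 barcodes (IMQ+celastrol), 119831835 over 8236 (IMQ) and 77880943 over 10565 (normal). Barcodes under 300 genes (187, 131 and 66 in that order) or over 20% mitochondrial UMIs (310, 167 and 113) were left out. The cells of highest Scrublet score were then left out at 0.8% per 1000 cells in every library alike (330, 513 and 870), because Scrublet's own calls (92, 0 and 182) were uneven.

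The 3 libraries were clustered together with scanpy 1.11.5 and leidenalg 0.10.2 (2000 variable genes without the members and listed genes, 30 principal components, 15 neighbours, resolution 1) under Python 3.11.15. Of 44 clusters 4 stayed unnamed. Names came from marker lists that hold no member. The thresholds of the naming rule (a marker in 25% of cells, a score of 0.25, 1.2 times the next class, 3 markers) were set after the clusters were seen. UMIs were summed per class and library, with exact Poisson and conditional binomial intervals at 95%. Intervals and floors cover counting error only. Ratios were tested on simulated data. The authors' replicates number 1 per group, so samples were grouped by label and no test was made.

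The members and gene lists were chosen with earlier results of these data known. Listed genes were named when among the 3 with the largest called change at 50 CPM or more, and like genes were the 5 of highest correlation. A few genes that these rules chose are not reported here. Alternatives varied doublets, filters, clustering, naming, scaling, pseudocount, weighting and depth. Those without barcodes shared between libraries and without cells holding 3 adipocyte markers were chosen after seeing the data.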

Additional observations from a re-analysis of the deposited data

Results flagged for a closer look

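Ratios of IMQ over normal skin ran in opposite directions in different classes for 4 members. The differences between classes were not tested, since each rests on the same pair of libraries. Fabp5 had a log2 ratio of 5.74 in cycling keratinocyte-like cells and -2.82 in blood endothelial-like cells, where that direction was lost with doublets kept (0.023) and without Scrublet's calls (0.11). Ppard had 1.92 in cycling keratinocyte-like cells and -0.79 in T or NK cell-like cells. Fabp4 had 4.13 in fibroblast-like cells and -3.51 in blood endothelial-like cells. Cd36 had 3.16 in fibroblast-like cells and -3.62 in blood endothelial-like cells.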

How the results depend on the processing

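No paired analysis was possible because each group holds 1 library and no test was made. Of 323 alternative values of the 23 called differences, 318 kept their sign and 310 stayed past 1.5-fold. The log2 ratio of Fabp5 in keratinocyte-like cells, IMQ over normal, was 4.51 as reported, 4.25 with doublets kept, 4.38 without Scrublet's calls, 4.58 with each library clustered by itself, 4.63 at resolution 2, 4.59 with the members among the clustering genes, 4.80 with each cell weighted alike and 4.79 after thinning. For IMQ+celastrol over IMQ it was -0.48 as reported, -0.47 with doublets kept, -0.71 without Scrublet's calls, -0.72 at resolution 2, -0.74 with a minimum of 500 genes, -0.57 with the members among the clustering genes, -0.46 with median-ratio scaling, -0.76 with each cell weighted alike and -0.76 after thinning. Fabp4 in blood endothelial-like cells, IMQ over normal, was -3.51 as reported, -3.27 with doublets kept, -3.33 without Scrublet's calls and -3.61 after thinning. For IMQ+celastrol over IMQ it was -0.03 as reported, -0.60 with doublets kept, -0.60 without Scrublet's calls and -0.73 after thinning. A few endothelial results changed sign. Fabp5 in blood endothelial-like cells, IMQ over normal, was 0.023 with doublets kept and 0.11 without Scrublet's calls, in place of -2.82. Fabp5 in lymphatic endothelial-like cells was -1.64 under both, in place of 1.93. Cd36 in lymphatic endothelial-like cells, IMQ+celastrol over IMQ, was 0.40 after thinning, in place of -2.51. With 10 CPM added in place of 1, Cd36 in fibroblast-like cells had log2 ratios of 1.39 for IMQ over normal and -1.48 for IMQ+celastrol over IMQ. Among the lists in keratinocyte-like cells, IMQ over normal, 3 uptake genes and 5 PPAR targets were called higher with 10 CPM added, in place of 5 and 7, and 4 thrombospondin and CD36 partner genes with no filter on low values, in place of 1. The cause was not tested in any of these. Classes of 16 to 57 cells limit what the imiquimod libraries can show in sebocytes, macrophages and blood vessels.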

Other observations

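Melanocyte-like cells, 1 cluster of 84 cells, held Fabp5 at 36892 CPM in the IMQ+celastrol library (14 cells), 14125 CPM in the IMQ library (35 cells) and 1171 CPM in the normal library (35 cells). The 4 keratins stood at 30479 CPM in those IMQ+celastrol cells, near the 32164 CPM of keratinocyte-like cells of that library, at 5436 CPM in the IMQ cells and at 135 CPM in the normal ones. Dendritic cell-like cells held 16 Cd36 UMIs in the IMQ+celastrol library (16 cells, 138 CPM), 9 of them in 1 cell. They held 0 UMIs in the IMQ library (49 cells) and 38 UMIs in the normal library (292 cells, 23.2 CPM).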
